A study of Mus musculus with 9 samples.

Results

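The natriuretic peptide system of the mouse heart was described through 9 genes, taken by symbol from the 43154 genes listed for each heart. They are the hormone genes Nppa, Nppb and Nppc, the receptor genes Npr1, Npr2 and Npr3, the osteocrin gene Ostn, and the protease genes Corin and Furin. The 9 hearts came from C57BL/6 mice that were either wild type or carried a calcineurin transgene. Calcineurin is a calcium-activated phosphatase, and the transgene's MHC promoter, the α-myosin heavy chain promoter, is active in cardiomyocytes and not in the other cells of the heart. Transgenic mice were given vehicle (3 hearts) or JIB-04, an inhibitor of the Jumonji histone demethylases (2 hearts), and wild type mice were given vehicle (4 hearts). Dosing began at 4 weeks of age and was repeated 3 times a week, with JIB-04 at 50 mg/kg. Transgenic vehicle heart 1, JIB-04 heart 1 and wild type hearts 1 and 2 were taken at postnatal day 125, and all others at day 158. Wild type mice given JIB-04 were not analysed here. The labels number each mouse separately, and they do not say whether the atria were included.

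Natriuretic peptides are hormones of the heart and vessel wall. Nppa encodes atrial natriuretic peptide (ANP) and Nppb encodes B-type natriuretic peptide (BNP), which cardiomyocytes release under load. Both act on the guanylyl cyclase receptor encoded by Npr1, which makes cyclic GMP (cGMP), lowers blood pressure and restrains growth of the heart muscle. Nppc encodes C-type natriuretic peptide, the ligand of the guanylyl cyclase encoded by Npr2. Npr3 encodes a receptor without a cyclase domain that takes the peptides up and clears them. Osteocrin, a secreted protein known from bone and skeletal muscle, binds the clearance receptor and competes there with the natriuretic peptides. Corin cleaves the ANP precursor at the cell surface, and furin cleaves precursors that include that of BNP. After birth ANP is made mainly in the atria, and renewed expression in ventricles is a textbook sign of an overloaded heart.

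Levels are in FPKM, the number of fragments per kilobase of transcript scaled for library size, so that they can be compared between genes. Differences are given on the log2(FPKM + 1) scale, which understates changes at low levels. They come from limma with a term for the day of collection, with standard error (SE), 95% interval and Benjamini-Hochberg adjusted p over 13487 tested genes (threshold 0.05). Depth, estimated from the steps between low FPKM values, was about 15100000 to 22700000 fragments per heart. Ppp3ca, the gene of the catalytic calcineurin subunit, was at 22.9 to 24.8 FPKM in wild type hearts, at 1434 to 1762 FPKM in 4 transgenic hearts and at 199 FPKM in transgenic vehicle heart 3. Transgenic vehicle heart 3 and JIB-04 heart 2 also stood apart by listing mt-Atp6, mt-Atp8 and mt-Co3 at high levels, while the other 7 hearts listed these mitochondrial genes at 0. Only wild type heart 2 listed mt-Co1 and mt-Co2 at 0. In the remaining hearts mt-Co1 was at 14582 to 32026 FPKM and mt-Co2 at 39320 to 111756 FPKM. Summed markers of cardiomyocytes (Myl2, Myl3, Irx4, Hey2 and Myh6) were at 9741 to 11198 FPKM in wild type and 6354 to 7843 FPKM in transgenic vehicle hearts. Those of fibroblasts were at 623 to 797 FPKM in wild type and 1036 to 1416 FPKM in transgenic vehicle hearts, with Gsn and Dcn the largest parts. Of 7 fibroblast markers, Dcn, Gsn, Pdgfra and Tcf21 were called higher, where limma called 20.3% of all tested genes higher. Lum, Dpt and Col1a1 were not called. In transgenic vehicle heart 3 they lay below all wild type hearts (21.1, 38.4 and 9.67 FPKM), so the sum does not show a shared rise of the list. In RNA from whole tissue, fewer cells of a type and less RNA per cell cannot be told apart.

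Nppa and Nppb are neighbours on chromosome 4, and both rose in the transgenic hearts. Their promoters are printed with those of Furin, which also rose, and of Npr1, which fell, so that hormone, protease and receptor can be compared. Each sequence is the stretch of 250 bases before the RefSeq start site, on the gene's strand (GRCm38.p6), and 8 of the 9 genes had an entry. Capitals mark matches, on either strand, to 5 motifs. These are GATAA for the GATA family, GGAAA for the NFAT family, AAGTG for the NKX2 family, CATTCC for the M-CAT element of TEAD proteins, and TATAAA for the TATA box. No 2 matches overlapped. Nppa is on the forward strand at chr4:148000472-148000721, Nppb on the forward strand at chr4:147985650-147985899, Furin on the reverse strand at chr7:80405437-80405686 and Npr1 on the reverse strand at chr3:90465867-90466116.
Nppa: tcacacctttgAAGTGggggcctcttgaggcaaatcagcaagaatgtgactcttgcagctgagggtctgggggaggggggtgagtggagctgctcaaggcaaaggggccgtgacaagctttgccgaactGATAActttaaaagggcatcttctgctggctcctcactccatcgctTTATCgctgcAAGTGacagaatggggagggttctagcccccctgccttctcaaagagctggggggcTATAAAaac
Nppb: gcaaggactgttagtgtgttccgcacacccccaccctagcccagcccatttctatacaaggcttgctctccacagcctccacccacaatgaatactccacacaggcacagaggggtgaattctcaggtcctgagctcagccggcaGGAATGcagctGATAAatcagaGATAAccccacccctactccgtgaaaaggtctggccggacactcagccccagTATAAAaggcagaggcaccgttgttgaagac
Furin: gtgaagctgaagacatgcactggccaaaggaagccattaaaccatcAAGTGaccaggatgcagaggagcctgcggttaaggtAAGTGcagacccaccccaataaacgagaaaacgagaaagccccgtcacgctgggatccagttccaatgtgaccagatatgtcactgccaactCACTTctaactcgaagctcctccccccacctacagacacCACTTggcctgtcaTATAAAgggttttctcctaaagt
Npr1: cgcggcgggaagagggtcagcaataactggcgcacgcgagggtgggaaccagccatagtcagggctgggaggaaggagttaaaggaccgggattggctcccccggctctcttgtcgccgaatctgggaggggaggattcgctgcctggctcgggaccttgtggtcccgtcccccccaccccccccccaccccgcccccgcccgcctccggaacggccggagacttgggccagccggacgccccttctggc

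Counting back from -1 at the base before the start, the Nppa window held GATAA at -121 and, on the opposite strand, at -75. It also held AAGTG at -239 and -65, and TATAAA at -9. The Nppb window held GATAA at -94 and -83, CATTCC on the opposite strand at -105, and TATAAA at -31. The RefSeq start of Nppb lies 112 bases downstream of the gene start in the deposited files, so the end of this window falls inside the gene as the files place it. The Furin window held 4 matches to AAGTG and 1 TATAAA. A second RefSeq start of Furin, with its window at chr7:80402813-80403062 (83.2% G and C), had no match to the 5 motifs and is not printed, and the Npr1 window held no match to any of the 5 motifs. GGAAA, the core bound by the NFAT factors that calcineurin activates, had no match in the 4 printed windows. Among the windows not printed, only that of Corin held it, on the opposite strand at -209. Of 32851 mouse promoter windows of this length, 22.6% held GATAA, 55.6% GGAAA, 40.7% AAGTG, 12.6% CATTCC and 12.4% TATAAA. Matches of this length are a description of the letters and not evidence of binding.

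Of the 9 genes, 8 passed the minimum of 1 FPKM in 2 hearts and 7 of these were called in transgenic vehicle against wild type hearts. Nppa, Nppb, Npr3, Ostn and Furin rose, Npr1 and Corin fell, and Npr2 did not pass the threshold. Ostn is counted here although it passed the filter only through transgenic hearts, where it was high. In the same comparison limma called 36% of all tested genes, 20.3% higher and 15.7% lower. The median difference of the 8 genes was 1.93, against 0.05 over all tested genes. In 6 of the 8 genes the 2 groups did not overlap, which was the case for 41.2% of all tested genes (23.4% with the transgenic hearts higher and 17.7% lower). With the JIB-04 hearts included, all 5 transgenic hearts lay above all wild type hearts for 5 of the 8 genes and below them for 1, against 20.4% and 15.3% of all tested genes (35.6% in either direction). Scaling the hearts to equal totals moved the median of all genes by 0.20 and the share of higher calls from 56.3% to 81.7%, while scaling by median of ratios and quantile normalization gave 48.3% and 47.1%.

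**Figure D1:**
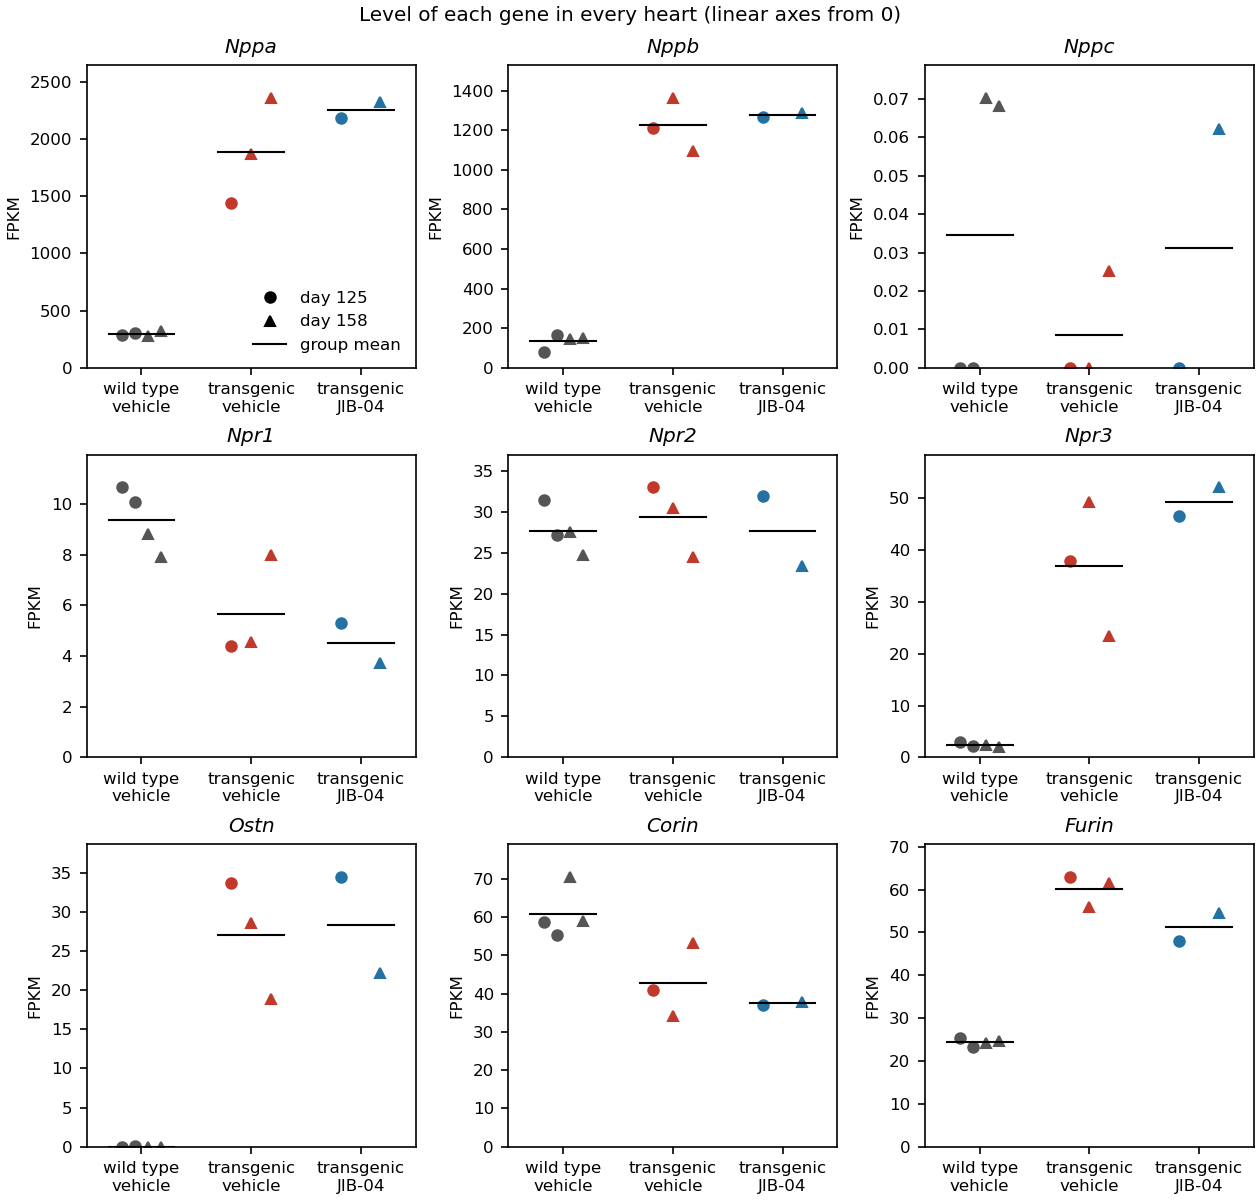
FPKM of each of the 9 genes in every heart, on linear axes that start at 0, with the 3 groups side by side and black lines at the group means. The 5 transgenic hearts lie above the 4 wild type hearts for Nppa, Nppb, Npr3, Ostn and Furin and below them for Corin, while the groups overlap for Npr1 and Npr2 and the highest heart is at 0.0703 FPKM for Nppc.

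Nppa (ENSMUSG00000041616.9, chr4:148000722-148002079, forward strand, 3 exons) was at 287, 306, 279 and 324 FPKM in wild type hearts 1 to 4. It was at 1436, 1872 and 2360 FPKM in the transgenic vehicle hearts and, with JIB-04, at 2186 and 2326 FPKM. Every transgenic heart exceeded every wild type heart. Means were 299 ± 20.3 FPKM (SD, n = 4) in wild type and 1889 ± 462 FPKM (SD, n = 3) in transgenic vehicle hearts, a ratio of 6.32. The limma difference was 2.60 (SE 0.13, 95% interval 2.29 to 2.90, adjusted p = 1.07e-05). Among all 43154 genes, Nppa ranked between 213 and 280 in wild type hearts and between 27 and 34 in transgenic hearts. Transgenic vehicle heart 3, which had the lowest Ppp3ca of the transgenic hearts, had the highest Nppa of all.

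Atrial tissue can carry much ANP message, and the labels do not give the chambers, so atrial markers were set beside Nppa. The 7 atrial markers summed to 27.6 to 61.9 FPKM in wild type, 35.2 to 42.0 FPKM in transgenic vehicle and 36.7 to 37.0 FPKM in JIB-04 hearts. Of the 6 tested, Dkk3 rose and Kcnj3 fell in transgenic vehicle hearts, where limma called 36% of all tested genes. Bmp10 was listed at 0 in all wild type hearts. Kcnj3 was at 20.4 to 24.1 FPKM in wild type and 3.94 to 5.54 FPKM in transgenic vehicle hearts. Dkk3 was at 0.81 to 1.71 FPKM in wild type and 9.07 to 18.1 FPKM in transgenic vehicle hearts. The sum mixes these opposite changes, so its overlap between groups does not show that the other markers were at like levels. The atrial light chain gene Myl7 was at 13.5 FPKM in wild type heart 4, at 0.165 FPKM in wild type heart 3 and listed at 0 in wild type hearts 1 and 2. In the transgenic vehicle hearts Myl7 was at 3.44, 4.84 and 0.947 FPKM, and in the JIB-04 hearts at 2.39 and 2.18 FPKM. Wild type heart 4, with the most Myl7, had 324 FPKM of Nppa, and wild type hearts 1 and 2, with none listed, had 287 and 306 FPKM. The markers did not share an order among the transgenic vehicle hearts 1, 2 and 3. Dkk3 was at 9.07, 13.0 and 18.1 FPKM and Sln was listed at 0, 0.179 and 1.44 FPKM, both highest in heart 3 as was Nppa, while Myl4 (14.1, 15.5 and 6.41 FPKM) and Myl7 were lowest there. The part of atrial tissue in the level of Nppa was not tested. The antisense gene Gm13054 shares 532 exon bases with Nppa and was at 0.223 to 0.639 FPKM in wild type and 2.04 to 3.45 FPKM in transgenic hearts. The libraries kept no strand, so reads from the shared bases cannot be assigned to either gene.

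Nppb (ENSMUSG00000029019.8, chr4:147985788-147987205, forward strand, 3 exons) was at 77.7, 166, 147 and 152 FPKM in wild type hearts 1 to 4. It was at 1213, 1364 and 1097 FPKM in the transgenic vehicle hearts and, with JIB-04, at 1268 and 1285 FPKM. The groups were again fully apart, and wild type heart 1 was the lowest of all. Means were 136 ± 39.6 FPKM (SD, n = 4) in wild type and 1225 ± 134 FPKM (SD, n = 3) in transgenic vehicle hearts, a ratio of 9.02. The limma difference was 3.18 (SE 0.24, 95% interval 2.64 to 3.73, adjusted p = 5.82e-05). Within each of the 9 hearts Nppa exceeded Nppb. The Nppb to Nppa ratio was 0.270, 0.544, 0.529 and 0.468 in wild type, 0.844, 0.729 and 0.465 in transgenic vehicle, and 0.580 and 0.553 in JIB-04 hearts. The ratio therefore overlapped between the groups, with transgenic vehicle heart 3 below 3 of the 4 wild type hearts.

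The genes around the pair were set beside it. Nppb ends 13516 bases before Nppa starts, and genes within 50 kb of the pair are given here. Plod1, a collagen-modifying enzyme gene, was at 31.7 to 33.3 FPKM in wild type and 25.5 to 37.6 FPKM in transgenic hearts. The uncharacterised gene 2510039O18Rik was at 17.8 to 20.7 FPKM in wild type and 16.9 to 19.7 FPKM in transgenic hearts. Clcn6, a chloride channel family gene that starts beyond Nppa, was at 2.89 to 3.27 FPKM in wild type and 2.99 to 4.56 FPKM in transgenic hearts. In each of these 3 genes the transgenic and wild type hearts overlapped. The pseudogene Gm13207 was listed at 0 in 8 of the hearts, and Gm13054, described above, also lies there.

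Nppc (chr1:86666291-86670571, reverse strand) did not pass the filter and was not tested. It was listed at 0, 0, 0.0703 and 0.0681 FPKM in wild type hearts, at 0, 0 and 0.0253 FPKM in transgenic vehicle hearts, and at 0 and 0.0622 FPKM in JIB-04 hearts. The highest of these equals about 1 fragment. At this depth 3 fragments would be 0.157 to 0.236 FPKM, so no difference of Nppc was detectable.

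Npr3, the clearance receptor gene (ENSMUSG00000022206.7, chr15:11839896-11905674, reverse strand), had the largest rise of the 3 receptors. It was at 3.04, 2.16, 2.45 and 2.07 FPKM in wild type hearts 1 to 4. It was at 38.0, 49.2 and 23.5 FPKM in the transgenic vehicle hearts and, with JIB-04, at 46.6 and 52.2 FPKM. The lowest transgenic heart, vehicle heart 3, was still far above the highest wild type heart. Means were 2.43 ± 0.439 FPKM (SD, n = 4) in wild type and 36.9 ± 12.9 FPKM (SD, n = 3) in transgenic vehicle hearts, a ratio of 15.2. The limma difference was 3.43 (SE 0.23, 95% interval 2.90 to 3.95, adjusted p = 3.29e-05), and 3.70 without transgenic vehicle heart 3. Npr3 is known from the endocardium, the inner lining of the heart, and markers of that layer were set beside it. The 5 endocardial markers summed to 19.6 to 22.5 FPKM in wild type, 38.6 to 49.3 FPKM in transgenic vehicle and 69.3 to 81.0 FPKM in JIB-04 hearts. Most of the rise of this sum came from Cytl1 alone. Cytl1 was at 6.5 to 7.8 FPKM in wild type and 23.7 to 38.8 FPKM in transgenic vehicle hearts. In the JIB-04 hearts Cytl1 was at 61.7 and 55.7 FPKM. Of 4 tested, Cytl1 and Plvap rose and Cgnl1 fell in transgenic vehicle hearts, so the sum does not show a shared rise of the list. Limma called 20.3% of all tested genes higher and 15.7% lower in this comparison. The part of these markers in the rise of Npr3 was not tested.

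Npr1, the receptor gene for ANP and BNP (ENSMUSG00000027931.12, chr3:90450591-90465866, reverse strand), went the other way. It was at 10.7, 10.1, 8.81 and 7.92 FPKM in wild type hearts 1 to 4. It was at 4.38, 4.56 and 7.99 FPKM in the transgenic vehicle hearts and, with JIB-04, at 5.32 and 3.71 FPKM. Transgenic vehicle heart 3 lay just above wild type heart 4, and the other 4 transgenic hearts lay below all wild type hearts. Means were 9.37 ± 1.24 FPKM (SD, n = 4) in wild type and 5.64 ± 2.03 FPKM (SD, n = 3) in transgenic vehicle hearts. The limma difference was -0.66 (SE 0.20, 95% interval -1.12 to -0.19, adjusted p = 0.0359). This call was lost in 9 of 25 alternative analyses, among them without transgenic vehicle heart 1 (-0.38, adjusted p = 0.213 by limma), and without transgenic vehicle heart 3 the limma difference was -0.91 (adjusted p = 0.000696). The other hearts whose removal ended the call were transgenic vehicle heart 2 (adjusted p = 0.097 by limma) and each of wild type hearts 1 to 4 (adjusted p = 0.0787, 0.0727, 0.0803 and 0.0565 by limma).

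Endothelial markers were set beside Npr1. Of 7 endothelial markers, 5 fell and 0 rose in transgenic vehicle hearts, where limma called 15.7% of all tested genes lower. Their sum was 314 to 336 FPKM in wild type, 196 to 268 FPKM in transgenic vehicle and 174 to 195 FPKM in JIB-04 hearts. In transgenic vehicle heart 3, where Npr1 was at 7.99 FPKM, Cdh5 (30.0 FPKM), Tie1 (12.6 FPKM), Tek, Kdr and Emcn lay below all wild type hearts. Egfl7 (133 FPKM) lay within the wild type range there and Pecam1 (54.6 FPKM) above it. Of the smooth muscle and pericyte markers, Rgs5, Kcnj8 and Abcc9 were also called lower and Cnn1 higher in transgenic vehicle hearts. The part of the endothelial cells in the level of Npr1 was not tested.

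Npr2, the receptor gene for C-type natriuretic peptide (ENSMUSG00000028469.15, chr4:43631935-43651244, forward strand), was at similar levels in all groups. It was at 31.4, 27.1, 27.5 and 24.8 FPKM in wild type, 33.0, 30.5 and 24.4 FPKM in transgenic vehicle, and 32.0 and 23.4 FPKM in JIB-04 hearts. The ranges overlapped fully, and the 3 hearts above 31 FPKM were all taken at day 125. The limma difference between transgenic vehicle and wild type hearts was 0.12 (SE 0.11, 95% interval -0.13 to 0.36, adjusted p = 0.424). An antisense gene, Gm12473, shares 266 exon bases with Npr2 and was at 2.29 to 3.99 FPKM over the 9 hearts. Such overlaps also exist for Npr1 with Gm16048 (559 exon bases, at most 0.158 FPKM) and for Corin with Gm20647 (147 exon bases, 0.151 to 0.543 FPKM). Gm5144 shares 321 exon bases with Npr3, Gm32312 shares 184 with Ostn and Gm44851 shares 118 with Furin, and their levels were not analysed here.

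The mix of the 3 receptor messages therefore differed between genotypes. Npr2 gave 68.9% to 71.3% of the summed receptor FPKM in wild type hearts, Npr1 gave 22.7% to 25.6% and Npr3 gave 5.49% to 6.74%. In transgenic vehicle hearts Npr3 gave 50.4%, 58.4% and 42.0%, and Npr1 gave 5.81%, 5.41% and 14.3%. In the JIB-04 hearts Npr3 gave 55.6% and 65.8%, and Npr1 gave 6.33% and 4.68%. The groups of transgenic and wild type hearts did not overlap in the share of any receptor. The shares of a heart add up to the whole, so the rise of Npr3 by itself lowers the other shares. Npr2 lost share although its FPKM overlapped between the groups, so its share is no separate result. The summed level was 34.7 to 45.2 FPKM in wild type and 55.9 to 84.3 FPKM in transgenic hearts. As a ratio within a heart, Npr3 to Npr1 was 0.285, 0.214, 0.278 and 0.261 in wild type, 8.66, 10.8 and 2.94 in transgenic vehicle, and 8.77 and 14.1 in JIB-04 hearts. Transgenic vehicle heart 3 had the lowest ratio of the 5 transgenic hearts. Npr3 against the sum of both cyclase receptors was 0.0581 to 0.0722 in wild type and 0.725 to 1.92 in transgenic hearts. These shares and ratios are descriptions of the hearts, given without a test.

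**Figure D2:**
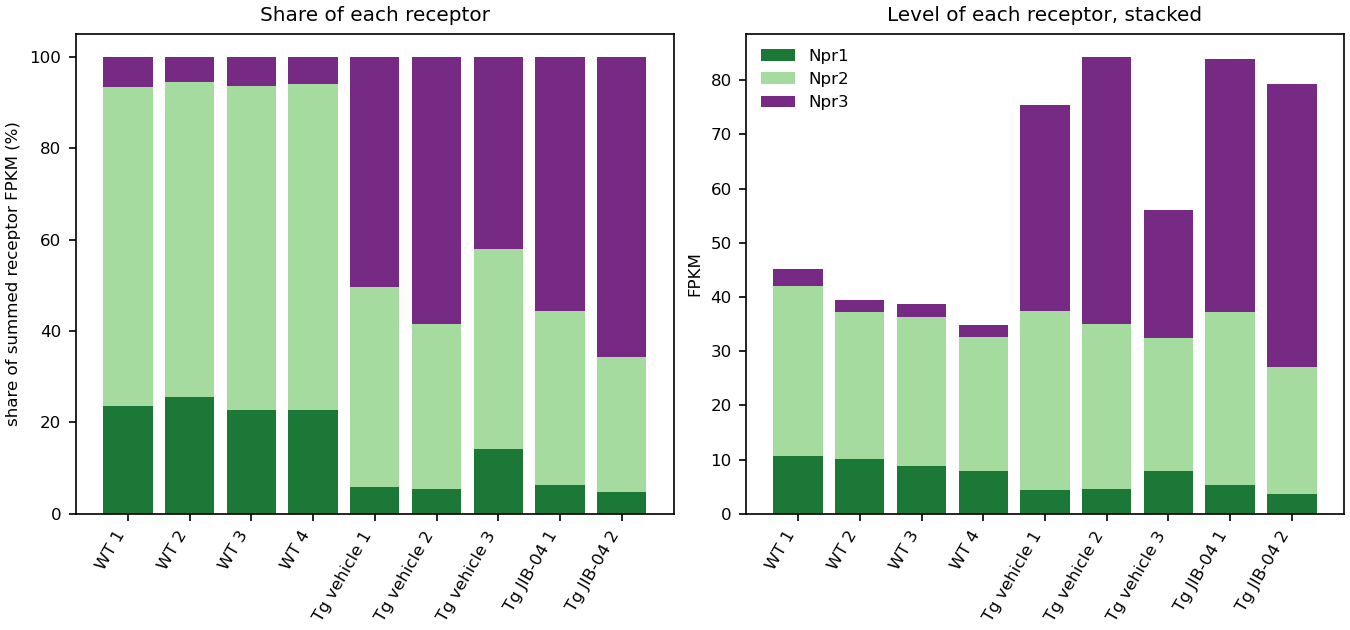
Npr1, Npr2 and Npr3 in each of the 9 hearts, as a share of their summed FPKM (left, percent) and as stacked FPKM (right), with each colour standing for 1 receptor gene. Npr3 takes 42.0% to 65.8% of the sum in transgenic hearts and 5.49% to 6.74% in wild type hearts.

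Ostn (ENSMUSG00000052276.8, chr16:27307489-27351212, forward strand, 5 exons) went from nearly undetected to a clear level. It was listed at 0, 0.0483, 0 and 0.0014 FPKM in wild type hearts 1 to 4, which equals about 1 fragment in wild type heart 2 and less in the others. It was at 33.7, 28.6 and 18.8 FPKM in the transgenic vehicle hearts and, with JIB-04, at 34.5 and 22.2 FPKM, which equals about 447 to 959 fragments. No transgenic heart came near the wild type hearts, and transgenic vehicle heart 3 was the lowest of the transgenic ones. Ostn passed the filter only through transgenic hearts, so it was tested only through hearts where it was high. The limma difference between transgenic vehicle and wild type hearts was 4.81 (SE 0.17, 95% interval 4.42 to 5.19, adjusted p = 2.35e-06). With wild type at the floor this size depends on the constant added before the logarithm, and a constant of 0.1 gave 7.97. Skeletal muscle and bone, the known sources of osteocrin, were represented by 10 marker genes, none of which passed the filter. The skeletal muscle list summed to 0.0669 to 0.458 FPKM in wild type and 0.0936 to 0.174 FPKM in transgenic hearts, with Myod1 and Myog listed at 0 in all transgenic hearts. The bone list summed to 0.0056 to 0.166 FPKM in wild type and 0 to 0.128 FPKM in transgenic hearts. The source of the Ostn message was not tested.

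The 2 precursor-cleaving proteases moved in opposite directions. Corin (ENSMUSG00000005220.10, chr5:72300025-72504473, reverse strand), which activates ANP, was at 58.8, 55.4, 70.6 and 59.0 FPKM in wild type hearts 1 to 4. It was at 41.1, 34.2 and 53.2 FPKM in the transgenic vehicle hearts and, with JIB-04, at 37.1 and 37.8 FPKM. All transgenic hearts lay below all wild type hearts, with transgenic vehicle heart 3 the closest. Means were 60.9 ± 6.63 FPKM (SD, n = 4) in wild type and 42.8 ± 9.62 FPKM (SD, n = 3) in transgenic vehicle hearts. The limma difference was -0.53 (SE 0.14, 95% interval -0.87 to -0.20, adjusted p = 0.022), and -0.68 without transgenic vehicle heart 3 (adjusted p = 0.00334). The call was lost in 5 of 25 alternative analyses, among them without transgenic vehicle heart 1 (adjusted p = 0.0727 by limma) and without wild type heart 3 (adjusted p = 0.0717 by limma). Corin is made by cardiomyocytes, and 4 of the 5 cardiomyocyte markers (Hey2, Myh6, Myl2 and Myl3) also fell, as did 15.7% of all tested genes. Their part in the fall of Corin was not tested. Relative to its substrate, the Corin to Nppa ratio was 0.181 to 0.253 in wild type and 0.0163 to 0.0286 in transgenic hearts, with no overlap. Corin and Nppa each separated these hearts in opposite directions, so the separation of their ratio is no separate result.

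Furin (ENSMUSG00000030530.15, chr7:80388585-80405436, reverse strand) rose with little spread within groups. It was at 25.3, 23.3, 24.2 and 24.8 FPKM in wild type hearts 1 to 4. It was at 63.0, 55.8 and 61.6 FPKM in the transgenic vehicle hearts and, with JIB-04, at 47.9 and 54.6 FPKM. Every transgenic heart was above every wild type heart, and both JIB-04 hearts were below all transgenic vehicle hearts. Means were 24.4 ± 0.854 FPKM (SD, n = 4) in wild type and 60.1 ± 3.79 FPKM (SD, n = 3) in transgenic vehicle hearts, a ratio of 2.47. The limma difference was 1.26 (SE 0.08, 95% interval 1.08 to 1.45, adjusted p = 2.53e-05).

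**Figure D3:**
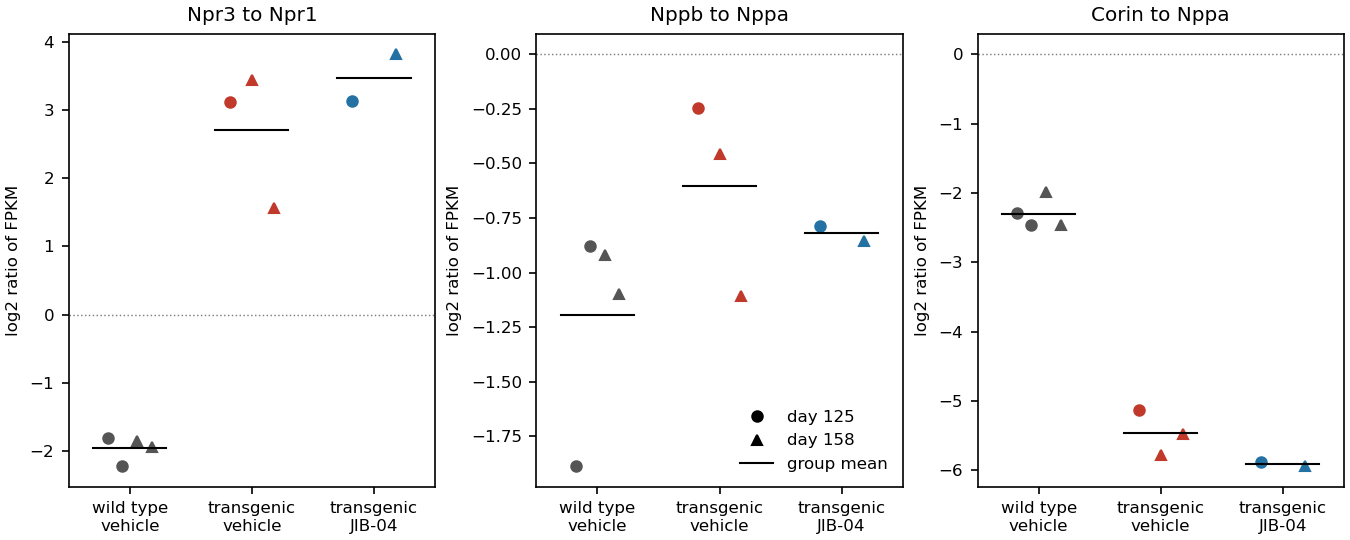
Log2 ratio of 2 of the genes within each heart (points), by group, for Npr3 to Npr1, Nppb to Nppa and Corin to Nppa, with black lines at the group means. The Nppb to Nppa ratio overlaps between groups, while in the other 2 ratios no transgenic heart reaches the wild type range.

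The order of the levels also changed with genotype. By group means, wild type hearts had Nppa highest, then Nppb, Corin, Npr2, Furin, Npr1 and Npr3, with Ostn and Nppc near 0. Npr2 and Furin overlapped there and were not separated beyond their spread. In transgenic vehicle hearts Nppa and Nppb were followed by Furin, Corin, Npr3, Npr2, Ostn and Npr1. There Corin, Npr3, Npr2 and Ostn overlapped with their neighbours in this order. In the JIB-04 hearts the order after the hormones was Furin, Npr3, Corin, Ostn, Npr2 and Npr1, again with overlap between Furin and Npr3 and between Ostn and Npr2. Npr1 passed from the sixth place to the lowest of the 8 detected genes, and Npr3 passed above both cyclase receptors by group mean.

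JIB-04 against vehicle in transgenic hearts asks whether the inhibitor shifted these genes. Of the 8 tested genes 0 were called by limma, where 0.00741% of all tested genes (1 gene) was called, and 444 genes had an unadjusted p under 0.05. The median difference of the 8 genes was -0.06, against -0.01 over all tested genes. With JIB-04 Nppa averaged 2256 ± 98.4 FPKM (SD, n = 2), against 1889 ± 462 FPKM (SD, n = 3) with vehicle, a limma difference of 0.32 (95% interval -0.05 to 0.69, adjusted p = 0.987). Nppb averaged 1277 ± 11.9 FPKM (SD, n = 2), a limma difference of 0.10 (95% interval -0.55 to 0.75). For Npr3 the mean was 49.4 ± 3.92 FPKM (SD, n = 2) and the limma difference 0.46 (95% interval -0.17 to 1.08). For Ostn the limma difference was 0.02 (95% interval -0.44 to 0.48). Npr1 differed by -0.26 (95% interval -0.82 to 0.29), Npr2 by -0.13 (-0.42 to 0.16) and Corin by -0.15 (-0.55 to 0.25). Several of these differences depended on the hearts that stood apart. Without transgenic vehicle heart 3 the difference was 0.19 for Npr3, 0.46 for Nppa, -0.01 for Nppb, -0.16 for Ostn, -0.21 for Npr2, -0.005 for Npr1 and -0.001 for Corin. Without this heart and JIB-04 heart 2 it was 0.12 for Npr3, 0.485 for Nppa, 0.14 for Nppb, 0.097 for Ostn, -0.06 for Npr2, 0.12 for Npr1 and 0.00 for Corin. None of these values was called.

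Furin was the gene of the 8 in which the JIB-04 and vehicle hearts did not overlap. Its mean was 51.3 ± 4.73 FPKM (SD, n = 2) with JIB-04, and the limma difference was -0.23 (SE 0.09, 95% interval -0.44 to -0.01, unadjusted p = 0.0429, adjusted p = 0.987). Groups of this size did not overlap for 12.4% of all tested genes, and for 6.88% with JIB-04 lower, so 1 of 8 is near the background. With 2 JIB-04 hearts the intervals leave room for differences in either direction for the other 7 genes, and a p above the threshold does not show that the groups are alike.

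Against wild type vehicle hearts, which also serve the first comparison, the JIB-04 hearts had the same 7 genes called, with 5 higher and 2 lower. Limma called 32.3% of all tested genes in this comparison, 17.4% higher and 14.8% lower. The groups did not overlap for these 7 genes, as for 50.2% of all tested genes (28.4% with JIB-04 higher and 21.7% lower). The differences for JIB-04 and vehicle hearts, each against wild type, were 2.91 and 2.60 for Nppa, 3.28 and 3.18 for Nppb, 3.88 and 3.43 for Npr3, 4.82 and 4.81 for Ostn, and 1.04 and 1.26 for Furin. For Npr1 they were -0.92 (adjusted p = 0.0168 by limma) and -0.66, and for Corin -0.68 (adjusted p = 0.0144 by limma) and -0.53. Npr2 was at -0.01 (adjusted p = 0.952 by limma) in the JIB-04 hearts. Without either of the JIB-04 hearts Npr1 and Corin were no longer called (adjusted p = 0.0523 and 0.0792 by limma without heart 1, and 0.183 and 0.128 without heart 2).

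**Figure D4:**
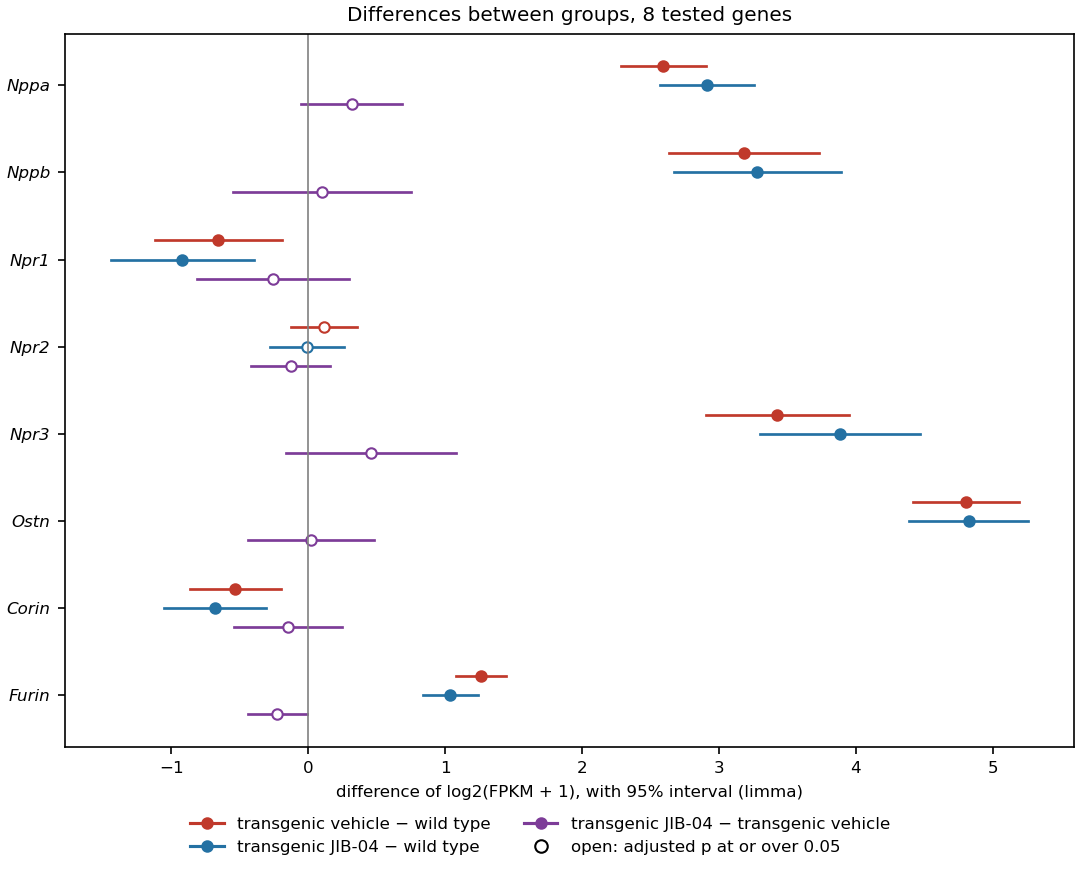
Difference of log2(FPKM + 1) with its 95% interval from limma for the 8 tested genes, for transgenic vehicle minus wild type, JIB-04 minus wild type and JIB-04 minus transgenic vehicle hearts. Intervals against wild type lie above 0 for Nppa, Nppb, Npr3, Ostn and Furin and below 0 for Npr1 and Corin, and intervals between JIB-04 and vehicle cover 0 except for Furin (-0.44 to -0.01, before adjustment).

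Day 158 was set against day 125 across the groups. Of the 8 tested genes 0 were called, where limma called 0.378% of all tested genes and 2534 genes had an unadjusted p under 0.05. Npr2 had the lowest unadjusted p of the 8 (0.0251), with a difference of -0.25 (SE 0.09, 95% interval -0.47 to -0.04, adjusted p = 0.198 by limma). Ostn differed by -0.32 (SE 0.15, adjusted p = 0.293 by limma) and Nppa by 0.20 (adjusted p = 0.412 by limma). The effect of the transgene was also compared between the days. Nppa was higher in transgenic vehicle than in wild type hearts by 2.27 at day 125 (adjusted p = 0.00381 by limma) and by 2.80 at day 158 (adjusted p = 0.000916 by limma), where limma called 8.33% and 16.7% of all tested genes. The difference between these effects was 0.53 (95% interval -0.03 to 1.09, adjusted p = 0.999 by limma). For Nppb the effects were 3.40 and 3.02, for Npr3 3.45 and 3.43, for Ostn 5.08 and 4.60, and for Furin 1.34 and 1.23. For Npr1 they were -1.08 and -0.40, neither of which was called. No gene of the 8 had a called difference between days, where 0.00741% of tested genes (1 gene) did and 401 genes had an unadjusted p under 0.05. Day 125 holds 1 transgenic vehicle heart, whose spread is assumed to be that of the other groups.

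The genes around the system were followed through 5 lists. In transgenic vehicle against wild type hearts limma called 36% of all tested genes, 20.3% higher and 15.7% lower. The counts of each list are to be read against these shares. Among 10 genes of peptide processing and breakdown 7 were tested, 1 rose and 1 fell in transgenic vehicle against wild type hearts, with a median of 0.02 against 0.05 over all genes. Mme, the gene of neprilysin, which degrades natriuretic peptides, fell from 2.24 ± 0.345 FPKM (SD, n = 4) to 0.212 ± 0.146 FPKM (SD, n = 3), a limma difference of -1.42 (SE 0.14, adjusted p = 0.000217). Mme passed the filter only through wild type hearts, where it was high. Pcsk5, a proprotein convertase gene of the furin family, rose from 0.474 to 0.973 FPKM by group mean, a limma difference of 0.40 (SE 0.11, adjusted p = 0.021). Pcsk5 passed the filter only through transgenic vehicle heart 3 (1.08 FPKM) and the JIB-04 hearts (1.01 and 1.11 FPKM). Wild type hearts had 0.378 to 0.626 FPKM, so it was tested only through hearts where it was high. Of 8 genes of other guanylyl cyclases and nitric oxide synthases, the other source of cGMP, 4 were tested, 0 rose and 1 fell, with a median of -0.33. That gene was Nos2, the inducible nitric oxide synthase gene, at 2.60 ± 0.483 FPKM (SD, n = 4) in wild type and 0.478 ± 0.297 FPKM (SD, n = 3) in transgenic vehicle hearts (limma difference -1.31, SE 0.17, adjusted p = 0.000742). Nos2 too passed the filter only through wild type hearts.

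Phosphodiesterases that degrade cGMP or are controlled by it had 7 of 10 genes tested, with 1 higher, 3 lower and a median of -0.11. Pde1c, which degrades both cyclic nucleotides, fell from 9.53 ± 0.816 FPKM (SD, n = 4) to 0.247 ± 0.0424 FPKM (SD, n = 3), a limma difference of -3.07 (SE 0.10, adjusted p = 2.03e-06). Pde1c passed the filter only through wild type hearts, where it was high. Its paralog Pde1a rose from 2.85 to 5.62 FPKM by group mean (limma difference 0.73, SE 0.12, adjusted p = 0.00217), and Pde2a and Pde3a fell. Of 10 cGMP effectors 8 were tested, 3 rose (Hspb6, Kcnma1 and Prkg1) and 2 fell (Pln and Rgs4), with a median of 0.11. Kcnma1, the gene of a calcium-activated potassium channel that cGMP-dependent kinase can open, went from 0.025 to 2.32 FPKM by group mean (limma difference 1.67, SE 0.14, adjusted p = 9.08e-05). Kcnma1 passed the filter only through transgenic hearts, where it was high. Rgs4, an inhibitor of G protein signalling, fell from 6.47 to 3.83 FPKM (limma difference -0.64, SE 0.13, adjusted p = 0.00689).

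All 16 transcription factors known to act on Nppa and Nppb were tested. Gata4, Hand2, Srf and Tbx20 rose, Mef2a, Mef2c and Nfatc2 fell, and the median was 0.02. Tbx20, a T-box factor of heart development, rose from 19.8 ± 1.34 FPKM (SD, n = 4) to 43.6 ± 6.26 FPKM (SD, n = 3), a limma difference of 1.06 (SE 0.10, adjusted p = 0.000164). Hand2, a basic helix-loop-helix factor, rose from 28.0 ± 8.97 FPKM (SD, n = 4) to 47.3 ± 6.16 FPKM (SD, n = 3), a limma difference of 0.85 (SE 0.16, adjusted p = 0.00494). In JIB-04 against vehicle transgenic hearts limma called 0 genes in each of the 5 lists, as it called 1 gene in all.

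**Figure D5:**
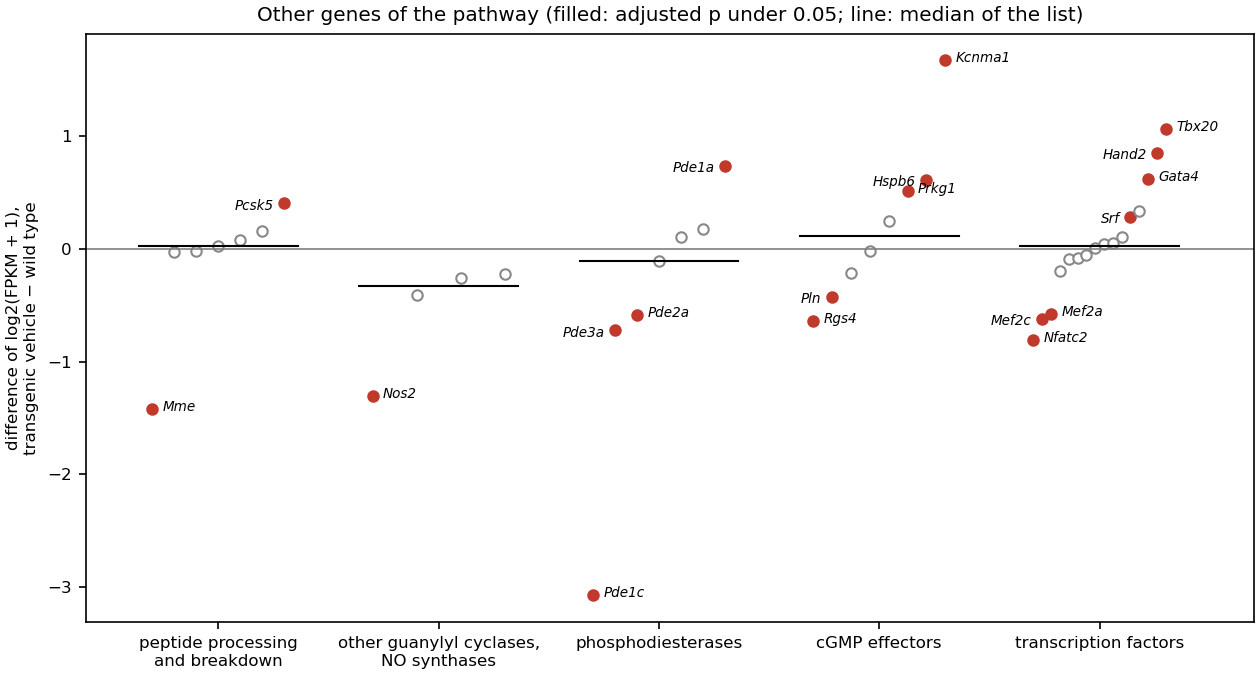
Difference of log2(FPKM + 1) between transgenic vehicle and wild type hearts for each tested gene of the 5 lists (points), filled where the limma adjusted p is under 0.05, with a line at the median of each list. Genes lie on both sides of 0 in 4 of the lists, with Pde1c lowest at -3.07 and Kcnma1 highest at 1.67.

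Across the 9 hearts the genes most like each of 4 members were ranked by Pearson correlation of log2(FPKM + 1), as a description that largely reflects the difference between genotypes. For Nppa these were Itgbl1 (0.998), Fxyd6 (0.997) and Comp (0.995). For Nppb they were Rab6a (0.996), Bdnf (0.994) and Tmco4 (0.993). Bdnf, a neurotrophin gene, was at 1.65, 3.16, 3.12 and 2.41 FPKM in wild type hearts 1 to 4, so that wild type heart 1 was the lowest, as it was for Nppb. For Npr3 they were Inpp4a (0.997), Igfbp7 (0.997) and Akr1b8 (0.996), and for Ostn they were Tpm2 (0.999), Zyx (0.998) and Ror2 (0.997). Tpm2, the β-tropomyosin gene, was at 11.3 to 14.0 FPKM in wild type and 757, 748 and 479 FPKM in transgenic vehicle hearts, with heart 3 lowest as for Ostn. Bdnf and Tpm2 were picked by correlation over these same hearts, so a shared order of hearts is no separate result. Between 526 and 571 tested genes correlated above 0.95 with each of the 4 genes, so the named ones head long lists. Among the members themselves, Npr3 and Ostn had the highest correlation (0.988), and Npr2 stayed between -0.282 and 0.200 with all others.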

How the data were processed

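Poly(A) RNA of 9 mouse hearts was sequenced from libraries without strand information, per the labels' protocols. The submitters' processing notes name STAR 2.7.1a, Picard, GATK 4.1.2, Cufflinks 2.2.1 and GRCm38, with no order of steps. The deposited values are log2 FPKM per gene, per the file headers. The constant added before taking logarithms is not given in the sources used here. It was taken as 1, since the lowest value was 0. Read counts were not used here. Depth was estimated from the steps between low FPKM values, of which 43.5% to 62.1% lay within 0.1 of a whole fragment, so it is approximate.

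Groups and days were taken from the labels. The 13487 of 43154 genes that reached 1 FPKM in 2 or more hearts were fitted with limma 3.58.1 (R 4.3.3) on log2(FPKM + 1) over all 9 hearts. A gene could pass this filter through hearts of only 1 genotype. Ostn, Kcnma1, Pcsk5, Comp, Ror2 and Cnn1 passed through transgenic hearts alone, and Mme, Nos2 and Pde1c through wild type hearts alone. The model had the 3 group means and day as terms, and eBayes was run with trend (5 residual degrees of freedom, prior 3.07). P-values are two-sided. The fit was tested on simulated data. Effects within each day were estimated by giving every combination of group and day its own mean. Exon overlaps came from GENCODE M21 and promoters from RefSeq (GRCm38.p6). Positions count from 1. Not every gene near Nppa and Nppb is reported here.

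Named were all members, up to 2 called genes of each pathway list with the largest differences, the 3 genes most correlated with Nppa, Nppb, Npr3 and Ostn, Ppp3ca, and genes whose exons overlap a member. The members and lists were chosen with earlier results of these data known. The 25 alternatives changed the pseudocount, filter, scaling, variance model, covariates or hearts, and 1 of them, leaving out both hearts that list mt-Atp6, was added after the data were seen.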

Additional observations from a re-analysis of the deposited data

Results flagged for a closer look

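In groups of 4 hearts the highest or lowest heart was compared with the rest by its gap relative to the range, for 35 genes and ratios described above. In 2 of them a wild type heart stood apart (critical value 0.829), and chance gives about 1 in 20. Ostn was at 0.0483 FPKM in wild type heart 2, about 1 fragment, with the other wild type hearts at 0 to 0.0014 FPKM (gap 0.971 of the range). Ror2, a receptor tyrosine kinase gene whose pattern is like that of Ostn, was at 0.514 FPKM in wild type heart 3, with the others at 0.281 to 0.308 FPKM (gap 0.884 of the range).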

How the results depend on the processing

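Nppa, Nppb, Npr3, Ostn and Furin stayed called with the same direction in all 25 alternatives in both comparisons with wild type. For transgenic vehicle against wild type the differences ranged over 2.45 to 2.82 for Nppa, 2.97 to 3.41 for Nppb, 3.18 to 3.84 for Npr3, 4.60 to 7.97 for Ostn and 1.20 to 1.48 for Furin. Npr1 also lost its call with no filter (adjusted p = 0.102 by limma), with equal totals (-0.47, adjusted p = 0.0613 by limma) and at day 158 alone (-0.40, adjusted p = 0.35 by limma). Corin lost it under the same settings (adjusted p = 0.0648, 0.0899 and 0.182 by limma). Against wild type, the JIB-04 hearts lost Npr1 at day 158 alone and with no filter (adjusted p = 0.142 and 0.0588 by limma), and Corin at day 158 alone (adjusted p = 0.202 by limma).

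Genes called in transgenic vehicle against wild type hearts numbered 4862, and 1217 with day 158 hearts alone. For JIB-04 against wild type the 4354 became 651 with day 158 hearts alone and 1720 to 5322 when 1 heart was left out (2186 without JIB-04 heart 1, 1720 without JIB-04 heart 2). For JIB-04 against vehicle the 1 call became 0 with a pseudocount of 0.1, a filter of 5 FPKM, day 158 alone or without both hearts that list mt-Atp6, 6 with no filter, 2 with no trend, and 0 to 3 when 1 heart was left out. The 51 calls for day became 23 with no filter, 185 with totals scaled without mitochondrial and the 20 highest genes, 20 without both hearts, and 9 to 287 when 1 heart was left out (9 without wild type heart 4, 287 without transgenic vehicle heart 2). Differences of the effects between days gave 1, 0 and 2 calls for transgenic vehicle against wild type, JIB-04 against vehicle and JIB-04 against wild type. These became 186, 540 and 402 with no filter. For the first of the 3, they became 0 with a pseudocount of 0.1 or a filter of 5 FPKM, 6 with equal totals and 3 with no trend. For the third they became 0 with a pseudocount of 0.1 or a filter of 5 FPKM, and 1 with a pseudocount of 0.5 or quantile normalization. The cause was not tested.

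Sign changes occurred only among uncalled differences. For JIB-04 against vehicle, Ostn became 0.00 with a pseudocount of 0.1, -0.04 with equal totals, -0.065 at day 158 alone, -0.023 with the compared groups only and -0.16 to 0.23 when 1 heart was left out. Nppb was at -0.01 to 0.22 when 1 heart was left out, and without both hearts Npr1 was at 0.12 and Corin at 0.00. For JIB-04 against wild type, Npr2 became 0.15 with equal totals, 0.063 with totals scaled without mitochondrial and the 20 highest genes, 0.051 with blocks of neighbouring mouse numbers, 0.14 without both hearts and -0.13 to 0.11 when 1 heart was left out. For day, Npr3 became 0.017 with totals scaled without mitochondrial and the 20 highest genes, 0.031 without both hearts and -0.20 to 0.063 when 1 heart was left out. Furin became -0.055 with equal totals, -0.05 without both hearts and -0.034 to 0.069 when 1 heart was left out, and Nppb -0.045 to 0.35.

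With the replicate number as a block in place of day, 4079, 1 and 3416 genes were called in the 3 comparisons of groups. No call of the members changed, and Ostn was at -0.051 for JIB-04 against vehicle. Same-numbered hearts correlated at -0.19 to 0.43 in their deviations from the group means, so the numbers were not taken to pair the hearts. Depth limits Nppc and wild type Ostn, which rest on about 1 fragment.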
